A study of Zea mays with 6 samples.

Results

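Crown roots (CR) and seminal roots (SR) of maize were compared after 24 h in 100 mM NaCl, with 1 library on each side (CR-salt and SR-salt). Crown roots are shoot-borne and form after germination at the stem nodes, whereas seminal roots are laid down in the embryo, and both serve the same plant at different ages. Sodium chloride acts on a root tip first by lowering the water potential around it and then by the entry of sodium and chloride ions. Osmolyte synthesis, ion transport, cell wall peroxidases, abscisic acid signalling and the suberin and lignin barriers of the root are the known sites of adjustment.

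The comparison used 2 of the 6 libraries of the study, and 2 more (CR and SR from plants kept without NaCl for the same 24 h) were used to ask which differences were already there without salt. The remaining 2, from the primary root (PR-salt and PR), are given as context. All came from the cultivar Chang 7-2, from tips of 1 cm, with 10 to 15 roots pooled per library. The plants were 15 days past germination when CR were treated, 7 days when SR were and 3 days when PR were. Age and root type cannot be told apart in any comparison below. The labels mention biological replicates, but each condition has 1 library. Every test on a pair of libraries therefore compares those libraries and covers counting error only. The uniquely aligned reads, rounded, numbered 2533000 for CR-salt and 2541000 for SR-salt, and 2613000 for CR and 2493000 for SR. RPKM, the reads of a transcript divided by its length and scaled to a fixed library size, is the level quoted below. Folds and log2 ratios were computed from the same reads, and the bracketed range beside a ratio is its 95% Clopper-Pearson interval.

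Of 40406 transcripts with a read in CR-salt or SR-salt, 176 were called different (0.436%), with an adjusted p (FDR) no higher than 0.001 in the Audic-Claverie test and a log2 ratio of at least 1 in either direction. Of these 49 were higher in CR-salt (0.121%) and 127 were lower (0.314%). They belonged to 175 genes. The limit on the ratio decided many cases, since 308 of the 484 transcripts that passed the FDR differed by less than 2-fold. The called transcript nearest to the limit had a log2 ratio of 1.003 in size and the nearest one outside it 0.995. Between CR and SR without NaCl, 211 of 40311 transcripts were called (0.523%), 58 higher (0.144%) and 153 lower (0.380%) in CR. Both pairs thus held more transcripts that were lower in the crown root. The 2 pairs share no library, and 60 transcripts were called in both, 8 higher and 52 lower in the crown root, with 0 called in opposite directions.

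A call in 1 pair and not in the other does not itself show that a difference arose or vanished, so the CR/SR ratios of the 2 pairs were compared directly with an exact conditional test on the reads of the 4 libraries. It passed for 41 of 22084 transcripts (0.186%), 28 with the higher (0.127%) and 13 with the lower (0.0589%) ratio under NaCl. By this test only 10 of the 116 transcripts that were called under NaCl alone had a changed ratio, 7 higher and 3 lower in CR-salt. For the other 106 the change of ratio did not pass. Of the 151 transcripts called without NaCl alone, 8 had a changed ratio and 143 did not pass. Of the 176 calls under NaCl, 164 lay on the same side of 0 in the untreated pair (93.2%), against 61.1% of the 11848 transcripts that had 50 or more reads in both pairs. For 122 of the 176 the interval of the untreated ratio excluded 0 on that side (69.3%, against 16.8% of the 11848). The median log2 ratio of the 49 higher transcripts was 1.16 under NaCl and 0.55 without it, and that of the 127 lower ones was -1.64 under NaCl and -1.08 without it. The ratio that selected the transcripts is the more extreme one in both cases. Over the 11848 transcripts, Pearson's r between the log2 ratios of the 2 pairs was 0.42, a description across genes that share the same libraries.

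Each root type was also set against its own untreated library, by the same rule, to see on which side a difference moved. CR-salt differed from CR in 148 of 40132 transcripts (0.369%), 54 higher (0.135%) and 94 lower (0.234%). SR-salt differed from SR in 159 of 40528 (0.392%), 33 higher (0.0814%) and 126 lower (0.311%). Of the 176 calls between the salt-treated root types, 134 were called in neither of these comparisons, which share libraries with the one described here. Among the others, 10 were higher and 20 lower in CR-salt than in CR, and 10 were higher and 12 lower in SR-salt than in SR.

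**Figure D1:**
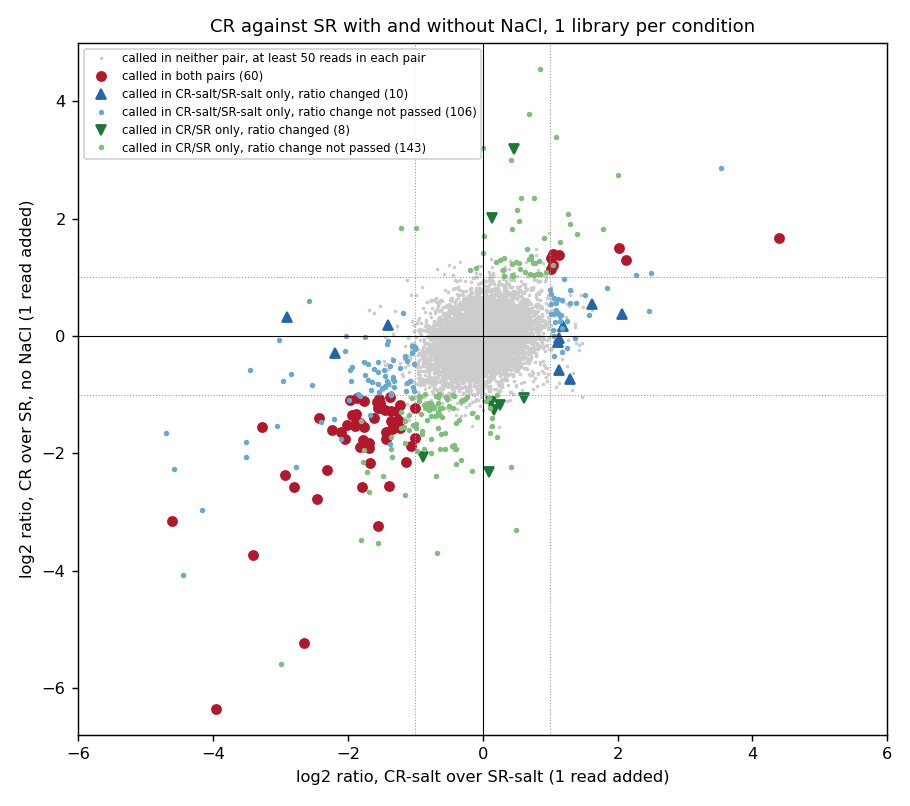
Log2 ratio CR-salt over SR-salt (horizontal axis) against log2 ratio CR over SR without NaCl (vertical axis), with 1 read added to each library. Each point is a transcript, and dotted lines mark a log2 ratio of 1 in either direction. Red points (60, called in both pairs) lie in the upper right and lower left only, and the 10 blue and 8 green triangles, whose ratio changed, lie between the dotted lines on 1 of the axes and outside them on the other.

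The limit of these counts is the variation between libraries, which a single pair cannot show. When a coefficient of biological variation (BCV) of 0.1 was assumed in edgeR's exact test, 71 of the 176 calls under NaCl stood, and with 0.2 only 6 stood. They include GRMZM2G099642_T01, GRMZM2G104945_T01, GRMZM2G089803_T01, GRMZM2G151921_T01 and GRMZM2G053503_T02, described next. With a BCV of 0.1 the interaction test of edgeR passed 0 of 22084 transcripts at the same thresholds, with 1097 at an unadjusted p under 0.05 (4.97%), 9 at an FDR of 0.05 and a smallest FDR of 0.0102 in GRMZM2G443885_T01. All statements below on a changed ratio hold for these 4 libraries under counting error.

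A MADS-box gene, zmm19 (tunicate1, GRMZM2G370777_T02), known in maize from the pod corn mutant, was higher in CR-salt. It had 22 reads in CR-salt and 1 in SR-salt. Without NaCl it had 22 reads in CR and 2 in SR, a log2 ratio of 3.39 (1.37 to 6.52) that was not called (FDR 0.0021 in the Audic-Claverie test).

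A sugar transporter of solute carrier family 50 (GRMZM2G000812_T01), the family of the SWEET sucrose and hexose exporters, was higher in the crown root in both pairs. It was the most abundant of the transcripts named for the highest ratios in that class. It had 558 reads in CR-salt against 137 in SR-salt, and 983 in CR against 332 in SR, with 28 in PR-salt and 48 in PR. Its log2 ratio was 2.03 (1.76 to 2.31) under NaCl and 1.498 (1.32 to 1.68) without it. Averaged over both NaCl states the difference was 1.75 (SE 0.14, derived from the test statistic), with an adjusted p of 0.00063 in edgeR's quasi-likelihood test over all 6 libraries. The 2 libraries of a root type differ in NaCl state and are not replicates. The spread in that test is the variation of root type differences between NaCl states, with 2 residual degrees of freedom. The transcript was also picked from these same libraries. The study measured this transcript by qRT-PCR too, and its primers are shown because they mark the transcript that the identifier stands for (5′ to 3′).
GRMZM2G000812_T01 forward: tggcatctgctggactgcttac
GRMZM2G000812_T01 reverse: gatgatctcctgggtggacttgtag

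Unannotated transcripts were also among those with the highest ratio in both pairs. GRMZM2G090114_T01 had 51 reads in CR-salt and 11 in SR-salt, and 141 in CR and 54 in SR. GRMZM2G176998_T01 had 455 and 207 reads in CR-salt and SR-salt, and 325 and 118 in CR and SR. GRMZM2G565911_T01 had 291 and 141 reads in the salt-treated pair (CR-salt, then SR-salt) and 212 and 87 in CR and SR. The log2 ratio of GRMZM2G176998_T01 was 1.14 under NaCl and 1.39 without it, and that of GRMZM2G565911_T01 was 1.05 under NaCl and 1.22 without it. With an assumed BCV of 0.1, the calls of GRMZM2G090114_T01, GRMZM2G176998_T01 and GRMZM2G565911_T01 under NaCl did not stand. At that BCV, 1 transcript was called higher and 20 were called lower in the crown root in both pairs.

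Among the 52 transcripts lower in the crown root in both pairs, the lowest ratios belonged to transcripts that were almost absent from it. GRMZM2G089803_T01 carries the entry ent-kaurenoic acid hydroxylase, an enzyme of the early gibberellin pathway. It had 9 reads in CR-salt against 106 in SR-salt, and 6 in CR against 88 in SR, while PR-salt had 176 and PR 142. Its log2 ratio was -3.55 (-4.72 to -2.57) under NaCl and -3.94 (-5.43 to -2.76) without it. The average difference was -3.69 (SE 0.26, adjusted p 0.000468 in edgeR's quasi-likelihood test), with the limits given above for the sugar transporter. The crown root therefore stood apart from both embryonic root types at this transcript, with and without NaCl.

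GRMZM2G099642_T01, annotated with transition metal ion binding, had 3 reads in CR-salt and 97 in SR-salt, and 7 in CR and 67 in SR. Its log2 ratio was -5.01 (-7.31 to -3.42) under NaCl and -3.33 (-4.70 to -2.21) without it. GRMZM2G104945_T01, annotated with a defence response, had 4 reads in CR-salt and 77 in SR-salt. Without NaCl it had 0 reads in CR and 77 in SR, at least 26.9-fold lower in CR against the floor of 3 reads. In PR-salt and PR these transcripts were present at 58 and 62 reads for GRMZM2G099642_T01 and at 100 and 164 for GRMZM2G104945_T01. dxs2 (GRMZM2G493395_T02), an enzyme at the entry of the plastid isoprenoid pathway, showed the same picture, with 5 reads in CR-salt and 37 in SR-salt, and 0 in CR and 35 in SR.

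ERF1 (GRMZM2G053503_T02), an ethylene response factor, had 16 reads in CR-salt against 130 in SR-salt, and 56 in CR against 281 in SR. It was lower with NaCl than without it in both root types by the same call, and the ratio between them did not pass the test of change (log2 ratio -3.02 under NaCl, -2.40 without it). GRMZM2G151921_T01, a phosphatidylinositol-bisphosphatase entry, had 18 reads in CR-salt against 184 in SR-salt, and 88 in CR against 247 in SR. Here the log2 ratio of -3.35 (-4.14 to -2.65) under NaCl differed from that of -1.56 (-1.93 to -1.20) without it, by -1.73 (FDR 0.000339 in the exact conditional test). A cytokinin receptor entry, GRMZM2G431039_T01, was also lower in the crown root in both pairs, with 49 reads in CR-salt against 172 in SR-salt and 196 in CR against 1121 in SR. Another cytokinin receptor, hk3 (GRMZM2G158252_T01), was called the other way under NaCl, with 157 reads in CR-salt and 69 in SR-salt, and 145 in CR and 90 in SR.

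**Figure D2:**
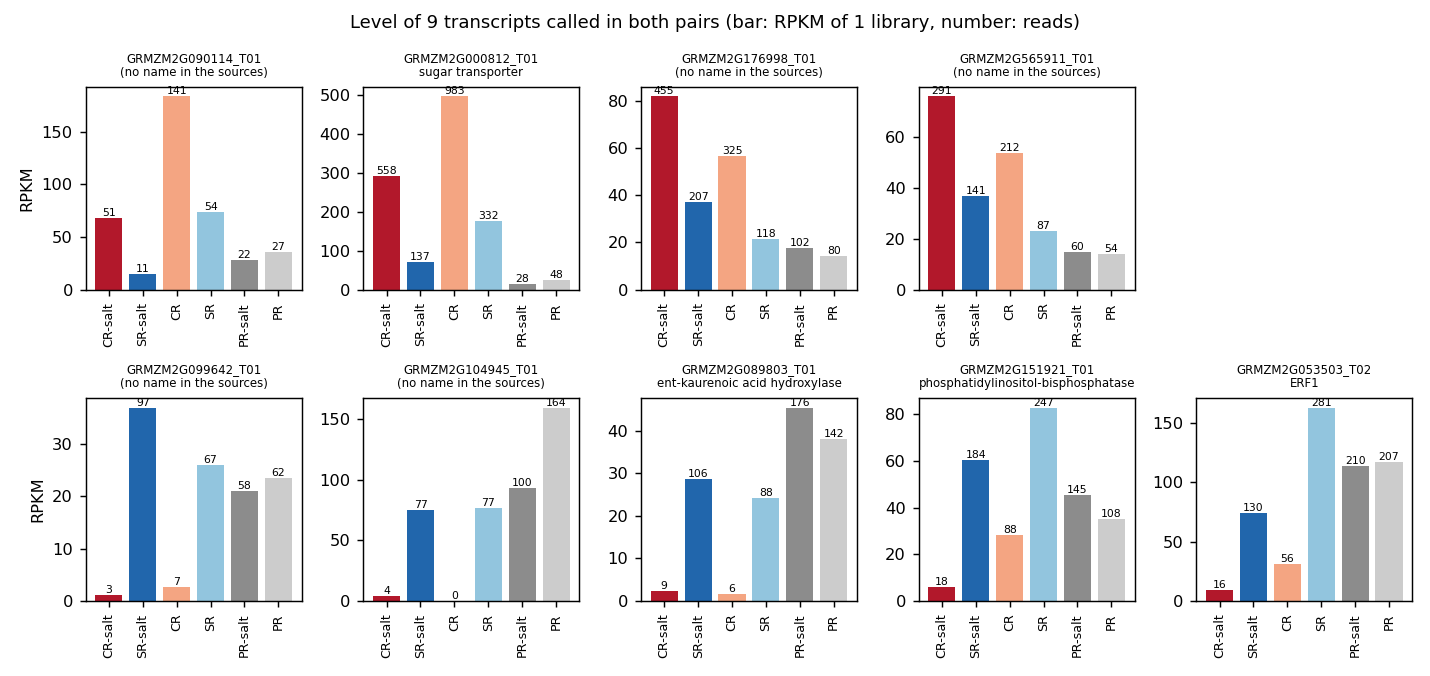
RPKM (vertical axes, from 0) in CR-salt, SR-salt, CR, SR, PR-salt and PR for 4 of the highest (upper row) and the 5 lowest (lower row) transcripts called in both pairs. Each bar is 1 library and the number above it is its read count. The sugar transporter stood at 558 and 983 reads in CR-salt and CR, and the ent-kaurenoic acid hydroxylase at 9 and 6.

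In all, the 52 transcripts had a median of 13.3 RPKM in CR-salt and 59.9 RPKM in SR-salt, and of 25.0 RPKM in CR and 73.9 RPKM in SR. PR-salt was above CR-salt for 47 of them, at a median of 45.5 RPKM. The 8 higher transcripts had medians of 72.2 RPKM in CR-salt and 28.4 RPKM in SR-salt, and PR-salt was above CR-salt for 0 of them. Both sets were selected by their CR-salt level, so the counts of 47 and 0 are partly fixed by that choice. Over all 127 transcripts lower in CR-salt, the untreated PR exceeded the untreated CR for 98 (77.2%), against 47.9% of the 12449 that had 50 or more reads in the salt-treated pair. For the 49 higher ones this share was 40.8%. These shares are partly set by the choice too, since 52 of the 127 and 8 of the 49 were also called between CR and SR.

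Single transcripts of nitrogen assimilation, phosphate transport and fermentation gave differences that rested on many reads. Of 56 tested nitrogen assimilation entries, 0 were higher and 1 was lower in CR-salt. Of 54 tested fermentation entries, 0 were higher and 1 was lower. Their median log2 ratios under NaCl were -0.13 and -0.30 over the entries with at least 50 reads. Phosphate transporters, a list added after values were seen, gave 0 higher and 2 lower of 8 tested. A glutamate synthase entry (GRMZM2G077054_T01), the enzyme that completes ammonium assimilation, had 2158 reads in CR-salt and 5190 in SR-salt, and 1757 in CR and 4516 in SR. Its log2 ratios were -1.26 (-1.33 to -1.19) under NaCl and -1.43 (-1.51 to -1.35) without it. adh2 (GRMZM2G098346_T01), an alcohol dehydrogenase of fermentation, had 348 reads in CR-salt and 949 in SR-salt, and 490 in CR and 1585 in SR. The phosphate transporter pht2 (GRMZM2G154090_T01) had 163 reads in CR-salt and 527 in SR-salt, and 112 in CR and 402 in SR. All 3 were called lower in the crown root in both pairs. The related pht9 (GRMZM2G070087_T01) was called under NaCl alone, with 1412 reads in CR-salt and 2929 in SR-salt, and 3594 in CR and 3857 in SR. It was lower by a call in CR-salt than in CR, and its change of ratio (-0.88) was under the limit of 1 although its FDR was 4.75e-50 in the exact conditional test.

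Differences that arose under NaCl, by the test of the ratio, were led by GRMZM2G012183_T01, a transcript without annotation. It had 128 reads in CR-salt against 30 in SR-salt, and 112 in CR against 82 in SR, so that the untreated libraries lay close together and SR-salt alone was low among these 4. PMP3 (GRMZM2G477325_T01), a small membrane proteolipid of a family known for salt tolerance in yeast and plants, reached 649 RPKM in CR-salt and 209 RPKM in SR-salt. Without NaCl it had 479 RPKM in CR and 326 RPKM in SR. Its log2 ratio was 1.63 (1.29 to 1.99) under NaCl and 0.55 (0.24 to 0.87) without it, so part of the difference was present beforehand. GRMZM2G335593_T01 and GRMZM5G822180_T01, both without annotation, had opposite ratios in the 2 pairs. GRMZM2G335593_T01 had 109 reads in CR-salt and 44 in SR-salt, but 72 in CR and 115 in SR. GRMZM5G822180_T01 had 124 reads in CR-salt and 56 in SR-salt, but 74 in CR and 106 in SR. The untreated ratios of both were below 0, at -0.74 (-1.19 to -0.31) and -0.59 (-1.04 to -0.14), and neither was called there. A peroxidase entry and 2 unannotated transcripts, GRMZM2G019373_T01 and GRMZM2G097884_T01, make up the 7.

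The 3 transcripts that became lower in CR-salt only all had a ratio near 0 without NaCl. A beta-fructofuranosidase entry (GRMZM2G018716_T01), an invertase that splits sucrose, had 3 reads in CR-salt and 29 in SR-salt, and 49 in CR and 37 in SR. Its log2 ratio was -3.27 (-5.63 to -1.58) under NaCl and 0.34 (-0.31 to 0.99) without it, and in PR-salt it had 8 reads against 90 in PR. CR-salt and PR-salt were thus low and SR-salt was not called lower than SR. An amino acid transporter entry of solute carrier family 32 (GRMZM2G164814_T01) had 66 reads in CR-salt and 177 in SR-salt, and 221 in CR and 184 in SR. GRMZM2G165914_T01, without annotation, had 23 reads in CR-salt and 109 in SR-salt, and 58 in CR and 68 in SR.

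Differences that narrowed, vanished or changed side under NaCl, by the test of the ratio, were 2 higher and 6 lower in CR than in SR. HAK20 (GRMZM2G395267_T01), a potassium transporter of the KUP/HAK family, had 137 reads in CR-salt and 123 in SR-salt, and 119 in CR and 273 in SR. It was lower in SR-salt than in SR by a call, and its log2 ratio was 0.16 (-0.20 to 0.52) under NaCl and -1.27 (-1.59 to -0.95) without it. An asparagine synthase entry (GRMZM2G078472_T03), which stores nitrogen in asparagine, had 252 reads in CR-salt and 470 in SR-salt, and 76 in CR and 307 in SR. Here the difference narrowed rather than closed, with a log2 ratio of -0.89 (-1.12 to -0.67) under NaCl and -2.08 (-2.46 to -1.72) without it. A syntaxin 7 entry (GRMZM2G106792_T01), a protein of vesicle fusion, had 121 reads in CR-salt and 79 in SR-salt, and 121 in CR and 240 in SR. Its ratio changed side, being below 0 without NaCl and above 0 under it (log2 ratio 0.61 after adding 1 read), where it was not called. GRMZM2G074672_T02, annotated with inorganic cation transport, had 69 and 63 reads in CR-salt and SR-salt but 105 and 24 in CR and SR. GRMZM2G003506_T01, without annotation, had 121 and 112 reads in CR-salt and SR-salt but 81 and 169 in CR and SR. The other 3 of the 8 were peroxidases.

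**Figure D3:**
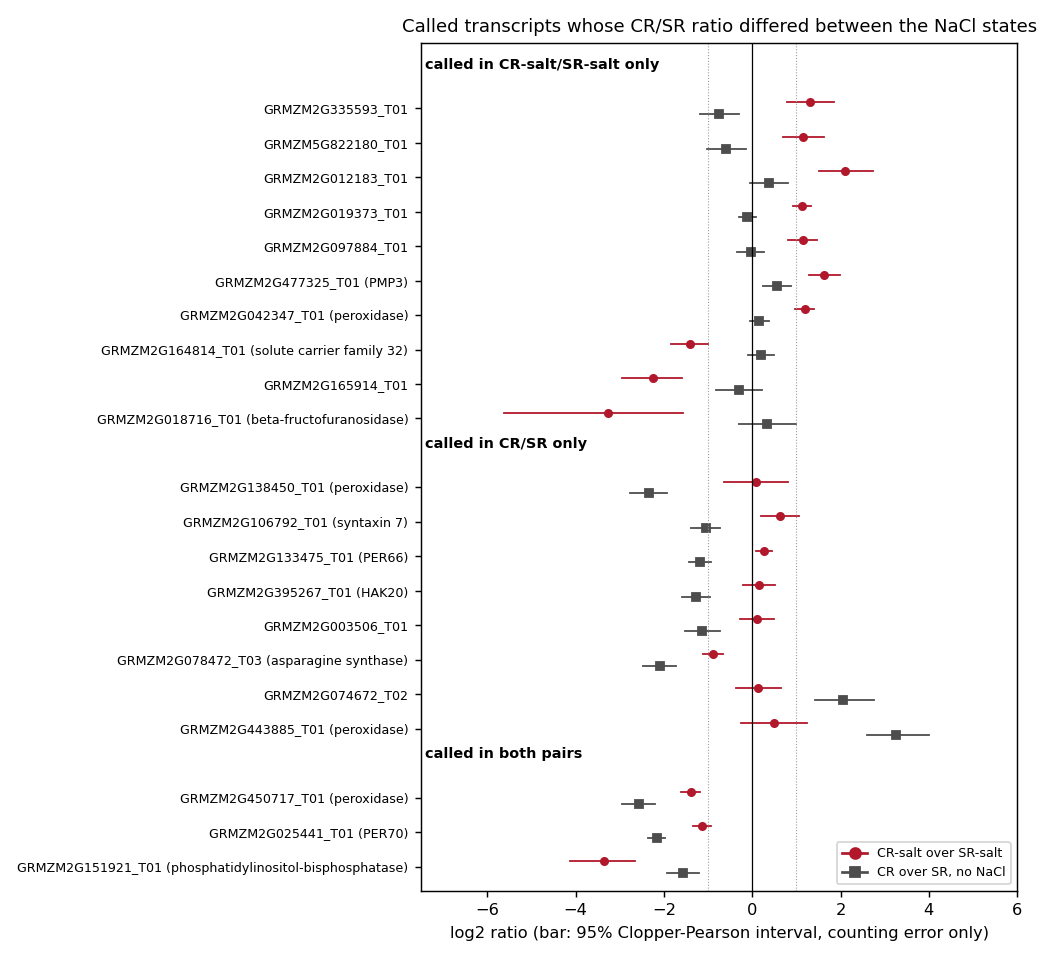
Log2 ratio CR-salt over SR-salt (red circles, upper of each pair) and CR over SR without NaCl (grey squares) for the 21 called transcripts whose ratio differed between the pairs, with 95% Clopper-Pearson intervals as bars. The 10 transcripts called under NaCl alone are on top, the 8 called without NaCl alone in the middle and the 3 called in both at the bottom. The red and grey intervals of HAK20 (0.16 and -1.27) do not overlap.

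Class III peroxidases, which form and consume reactive oxygen species in the cell wall and help to stiffen it, held 6 of these 21 transcripts. Of 133 tested peroxidase-entry transcripts, 1 was higher and 3 were lower in CR-salt, and 1 was higher and 9 were lower in CR without NaCl. Their median log2 ratio was -0.08 under NaCl and -0.31 without it over the 70 with at least 50 reads, beside -0.009 and -0.004 over all 12449 such transcripts. Of the 6 members whose ratio changed, 5 had the higher and 1 the lower ratio under NaCl. The shares over all tested transcripts, to set beside this and the other list counts, were 0.121% higher and 0.314% lower in CR-salt. Without NaCl they were 0.144% higher and 0.380% lower in CR. A changed ratio passed for 0.186% of the transcripts in that test.

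These 6 peroxidases fell into 3 patterns. In the first, SR was high without NaCl and the root types met under it. GRMZM2G138450_T01 had 36 reads in CR-salt and 34 in SR-salt, and 61 in CR and 295 in SR, and was lower in SR-salt than in SR by a call. PER66 (GRMZM2G133475_T01) had 543 reads in CR-salt and 455 in SR-salt, and 214 in CR and 463 in SR, and here it was the crown root that was higher with NaCl by a call. In the second, the crown root stayed below the seminal root. PER70 (GRMZM2G025441_T01) had 297 reads in CR-salt and 659 in SR-salt, and 269 in CR and 1147 in SR, while PR-salt and PR had 3420 and 3592. GRMZM2G450717_T01 had 257 reads in CR-salt and 679 in SR-salt, and 71 in CR and 402 in SR. Both were called in both pairs, and their log2 ratios were nearer to 0 under NaCl by 1.01 and 1.16. In the third, the crown root was higher. GRMZM2G042347_T01 had 565 reads in CR-salt and 249 in SR-salt, and 425 in CR and 362 in SR, so its difference was called under NaCl alone. GRMZM2G443885_T01 had 39 reads in CR-salt and 28 in SR-salt but 200 in CR and 20 in SR, and its log2 ratio was 0.48 (-0.25 to 1.24) under NaCl and 3.25 (2.59 to 3.996) without it. In the primary root the same transcript had 9 reads in PR-salt against 409 in PR. A further peroxidase, GRMZM2G134947_T01, was lower in the crown root in both pairs without a changed ratio, with 72 reads in CR-salt and 285 in SR-salt, and 195 in CR and 396 in SR. Peroxidase genes are a large family of similar sequences, and how reads from near-identical copies were shared out is not known, so single members are uncertain.

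**Figure D4:**
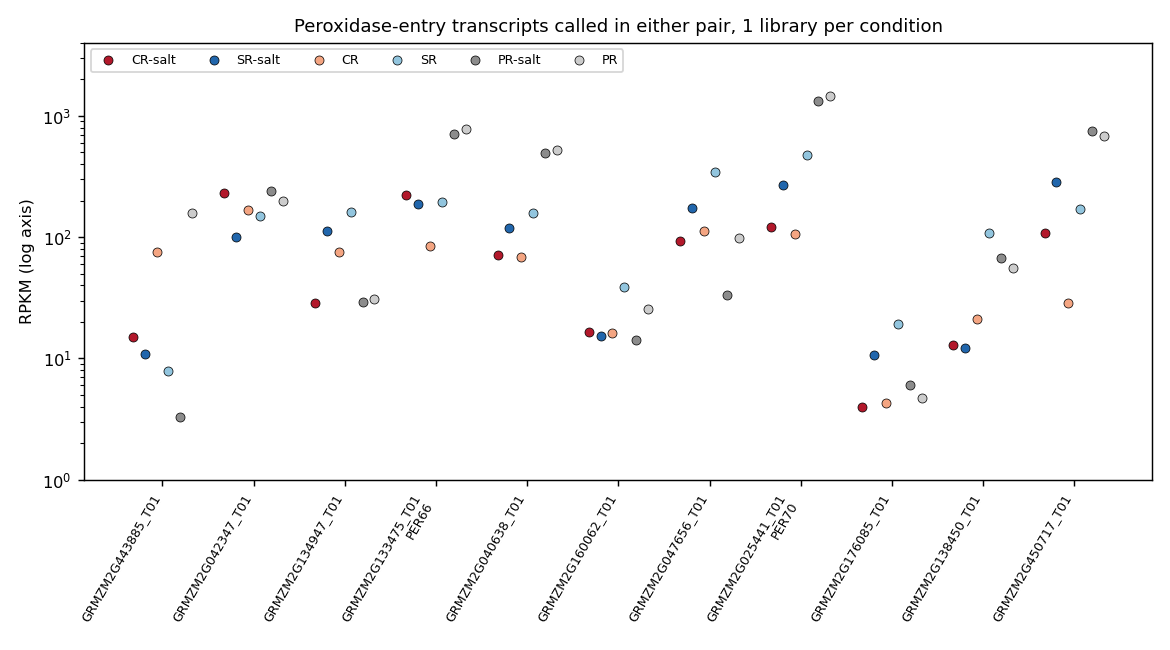
RPKM on a log axis of the 11 peroxidase-entry transcripts called in either pair. Each point is 1 library, in the order CR-salt, SR-salt, CR, SR, PR-salt and PR within a transcript, and transcripts are sorted by the untreated ratio. For GRMZM2G138450_T01 the SR point (295 reads) lies well above those of CR-salt and SR-salt (36 and 34 reads).

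Suberin is the waxy polyester that seals the root endodermis and exodermis. Of 81 tested transcripts of this group, 3 were higher and 0 were lower in CR-salt, and 0 were higher and 1 was lower in CR without NaCl. The median log2 ratio was 0.16 under NaCl and -0.06 without it over the 35 with at least 50 reads. A fatty acid omega-hydroxylase of cytochrome P450 family 86 (GRMZM2G350020_T01) had 117 reads in CR-salt and 49 in SR-salt, and 56 in CR and 62 in SR. A 3-ketoacyl-CoA synthase entry (GRMZM2G149636_T01), which elongates fatty acids, had 121 reads in CR-salt and 58 in SR-salt, and 59 in CR and 56 in SR. For both, CR-salt was the high library, and both were higher in CR-salt than in CR by a call. The third, an omega-hydroxypalmitate O-feruloyl transferase entry (GRMZM2G066049_T01), had 925 reads in CR-salt and 463 in SR-salt, and 959 in CR and 529 in SR, so that it differed in both NaCl states (log2 ratio 1.003 and 0.79) without a call in the untreated pair. A glycerol-3-phosphate acyltransferase entry (GRMZM2G166176_T01), of an enzyme class that includes suberin monomer synthesis and a list added after values were seen, had 111 reads in CR-salt and 53 in SR-salt, and 60 in CR and 73 in SR. Of these 4 transcripts, 0 were still called once a BCV of 0.1 was assumed. The change of ratio also passed for 0 of the 4. The nearest were GRMZM2G166176_T01 with an FDR of 0.00677 and GRMZM2G350020_T01 with an FDR of 0.00722, both in the exact conditional test.

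Laccases, which oxidise monolignols into lignin, are listed by the files under an L-ascorbate oxidase entry. This list was added after values were seen, so its count is a description only. Of 30 tested transcripts of that entry, 3 were higher and 0 were lower in CR-salt, and 1 was higher and 0 were lower in CR. lac5 (GRMZM2G367668_T01) had 714 reads in CR-salt and 345 in SR-salt, and 525 in CR and 320 in SR. GRMZM2G336337_T01, named Laccase-13 by RefSeq, had 467 reads in CR-salt and 212 in SR-salt, and 266 in CR and 213 in SR. A further transcript of that name, GRMZM2G132169_T01, had 133 reads in CR-salt and 63 in SR-salt, and 90 in CR and 73 in SR. CR-salt was the highest of the 6 libraries for all 3. Of the 3, only GRMZM2G336337_T01 was still called once a BCV of 0.1 was assumed. Phenylpropanoid and lignin enzymes did not share this direction, with 0 higher and 2 lower of 119 tested under NaCl. They were a cinnamoyl-CoA reductase entry, AC234526.1_FGT005 (44 reads in CR-salt, 211 in SR-salt, 69 in CR and 201 in SR), and a shikimate O-hydroxycinnamoyltransferase entry, GRMZM2G115422_T01 (30 reads in CR-salt, 79 in SR-salt, 48 in CR and 93 in SR).

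Cellulose synthase entries gave 0 calls in either pair among 41 tested transcripts, yet 13 of the 14 with at least 50 reads had a log2 ratio above 0 under NaCl, with a median of 0.51, beside 9 of 14 and a median of 0.18 without NaCl. The most abundant, GRMZM2G027723_T01, had 3824 reads in CR-salt and 2689 in SR-salt, and 3410 in CR and 2750 in SR. Its log2 ratio of 0.51 was under the limit of 1. Expansins are proteins that loosen the wall, and 3 that were picked out by their values were called lower in CR-salt. The expansin expB3 (GRMZM2G474194_T01) had 947 reads in CR-salt and 2510 in SR-salt, and 1528 in CR and 2553 in SR. expB7 (GRMZM2G342246_T01) had 210 reads in CR-salt and 719 in SR-salt, and 982 in CR and 2014 in SR, and was called lower in both pairs. expa2 (GRMZM2G105844_T01) had 18 reads in CR-salt and 61 in SR-salt, and 24 in CR and 39 in SR. These expansins were named after their values were seen, and expansins were not counted as a list. Among the pectin and wall remodelling entries, 0 were higher and 3 lower of 178 tested in CR-salt, and the same numbers held without NaCl. The list itself was mixed, with 24 above and 31 below 0 of the 55 with 50 or more reads under NaCl, and summed to 3878 RPKM in CR-salt and 3497 RPKM in SR-salt. The 3 called under NaCl were the endoglucanases GRMZM2G141911_T01 (4 reads in CR-salt, 38 in SR-salt, 20 in CR and 33 in SR) and GRMZM2G453565_T01 (68, 177, 64 and 150 reads in the same order) and the polygalacturonase GRMZM2G119494_T01 (63, 150, 116 and 251 reads).

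Gibberellins drive cell elongation, and their called genes were lower in the crown root. Of 121 tested gibberellin entries, 0 were higher and 4 were lower in CR-salt, and 0 were higher and 5 were lower in CR. Besides GRMZM2G089803_T01 these were a further ent-kaurenoic acid hydroxylase, GRMZM2G042543_T01 (20 reads in CR-salt, 66 in SR-salt, 9 in CR and 42 in SR), the gibberellin 3-beta-dioxygenase GRMZM2G046669_T01 (26, 72, 32 and 97 reads), which makes the active hormone, and the DELLA repressor GRMZM2G055263_T01 (34, 112, 29 and 100 reads). All 4 were called in both pairs, with a change of ratio between 0.13 and 0.50 on the log2 scale, so the gibberellin differences were present without NaCl. At a BCV of 0.1 the calls of GRMZM2G089803_T01 and GRMZM2G055263_T01 under NaCl stood and the other 2 did not. The list therefore holds genes that act in opposite ways, since DELLA proteins repress what the hydroxylases and the dioxygenase promote.

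For abscisic acid, the hormone of the salt response, 0 of 161 tested entries were higher and 3 were lower in CR-salt, and 0 were higher and 1 was lower in CR. The list as a whole leaned little. Under NaCl, 22 were above and 26 below 0 of the 48 with 50 or more reads, and the median log2 ratio was -0.06 in both pairs. The receptor PYL7 (GRMZM2G144224_T01) had 28 reads in CR-salt and 113 in SR-salt, and 151 in CR and 217 in SR. The receptor PYL5 (GRMZM2G057959_T01) had 31 reads in CR-salt and 88 in SR-salt, and 99 in CR and 141 in SR. CR-salt was the lowest of the 6 libraries for both, and both were lower in CR-salt than in CR by a call. Their log2 ratios were -2.01 (-2.66 to -1.40) and -1.50 (-2.14 to -0.90) under NaCl and -0.59 and -0.58 without it, and the change of ratio did not pass (FDR 0.0027 and 0.304 in the exact conditional test). An ABA responsive element binding factor (GRMZM2G402862_T01) had 16 reads in CR-salt and 91 in SR-salt, and 48 in CR and 122 in SR, and was called in both pairs. At a BCV of 0.1 its call under NaCl and that of PYL7 stood, and that of PYL5 did not. PYL7 was also among the transcripts that the study measured by qRT-PCR, with these primers (5′ to 3′), shown to fix which receptor is meant.
GRMZM2G144224_T01 forward: caccggctccggaactacctct
GRMZM2G144224_T01 reverse: gtccaccacgtacgactccacga

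Strigolactones are hormones cut from carotenoids. The list of 4 carotenoid cleavage entries was added because of its called members, and 2 were lower in CR-salt. CCD7 (GRMZM2G158657_T01) had 21 reads in CR-salt and 86 in SR-salt, and 35 in CR and 72 in SR. GRMZM2G164967_T01 had 51 reads in CR-salt and 184 in SR-salt, and 63 in CR and 226 in SR, and was called in both pairs. MAX1b (GRMZM2G023952_T01), a cytochrome P450 of the same pathway that was named after its values were seen, had 80 reads in CR-salt and 177 in SR-salt, and 125 in CR and 160 in SR. For jasmonate the directions were mixed, with 2 higher and 2 lower of 90 tested entries in CR-salt and 0 in CR. Both higher ones are transcripts of the lipoxygenase gene lox1, whose shared reads make them uncertain as separate items. GRMZM2G156861_T02 had 2481 reads in CR-salt and 1147 in SR-salt, and 1913 in CR and 1182 in SR, while GRMZM2G156861_T01 had 806, 389, 433 and 318 reads in that order. opr3 (GRMZM2G156712_T01), placed in this list by its annotation entry only, had 76 reads in CR-salt and 154 in SR-salt, and 115 in CR and 125 in SR. The jasmonate O-methyltransferase entry GRMZM2G033126_T01 had 27 reads in CR-salt and 70 in SR-salt, and 40 in CR and 51 in SR.

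Circadian clock and photoperiod entries are a list added after values were seen, so its count is a description only. Of 72 tested transcripts, 0 were higher and 5 were lower in CR-salt, and 1 was higher and 1 was lower in CR. Of the 33 with 50 or more reads, 14 were above and 19 below 0 under NaCl (median log2 ratio -0.08). The LATE ELONGATED HYPOCOTYL entry (GRMZM2G014902_T01), a morning transcription factor of the clock, had 82 reads in CR-salt and 235 in SR-salt, and 176 in CR and 312 in SR. A pseudo-response regulator 5 entry (GRMZM2G367834_T01) had 206 reads in CR-salt and 451 in SR-salt, and 316 in CR and 524 in SR. The other pseudo-response regulator 5 entry (GRMZM2G179024_T01) had 283, 576, 288 and 530 reads in that order, the FKF1 entry (GRMZM2G106363_T01) 33, 98, 69 and 129, and the CONSTANS entry (GRMZM2G018876_T01) 53, 134, 124 and 216. Their log2 ratios ran from -1.57 to -1.02 under NaCl and from -0.97 to -0.80 without it, so all 5 were on the same side in the untreated pair, under the limit of 1 there. The LATE ELONGATED HYPOCOTYL and CONSTANS entries were also lower in CR-salt than in CR by a call. At a BCV of 0.1 the call of the LATE ELONGATED HYPOCOTYL entry between CR-salt and SR-salt stood and the other 4 did not.

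**Figure D5:**
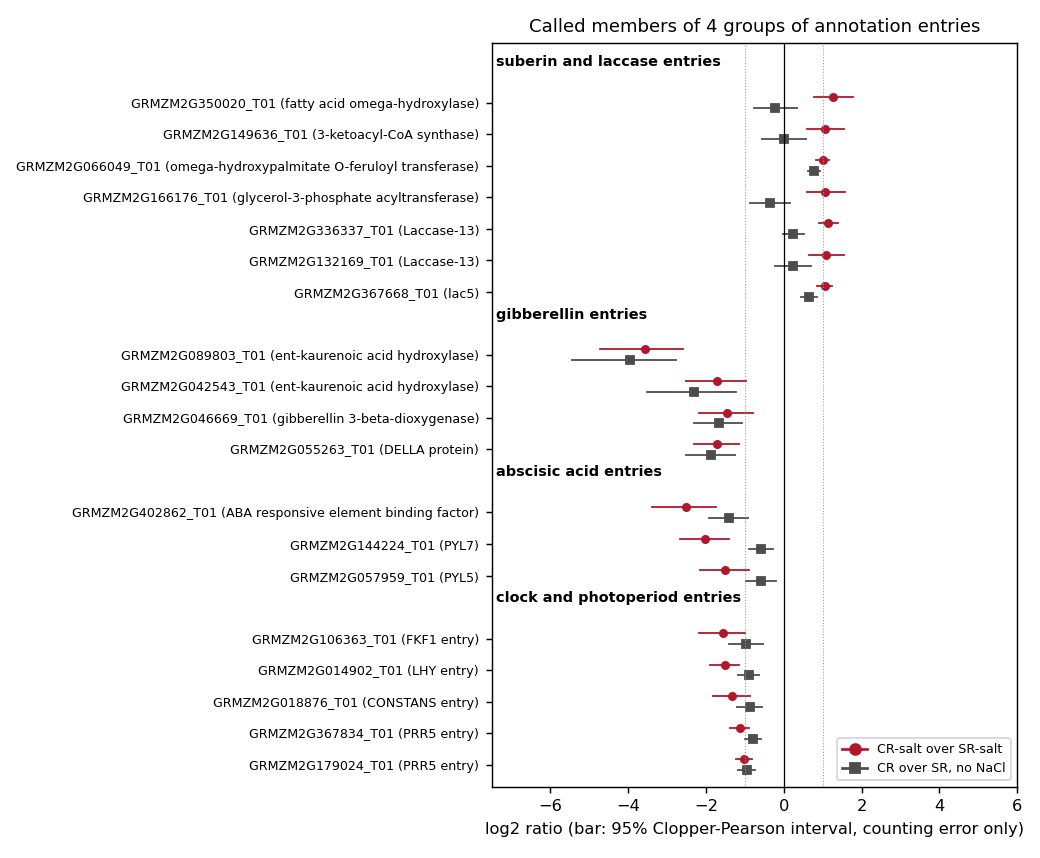
Log2 ratio CR-salt over SR-salt (red circles, upper of each pair) and CR over SR without NaCl (grey squares), with 95% Clopper-Pearson intervals, for the called members of the suberin and laccase, gibberellin, abscisic acid, and clock and photoperiod entries. The 7 suberin and laccase transcripts lie to the right of 0 under NaCl, 2 of them left of it without NaCl, and the other 12 lie to the left in both pairs.

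Of 69 tested chitinase and beta-glucosidase entries, 0 were higher and 5 were lower in CR-salt, beside 1 higher and 3 lower in CR. The list as a whole did not lean that way, with 16 above and 18 below 0 of the 34 that had 50 or more reads (median log2 ratio -0.07) and a summed level of 3704 RPKM in CR-salt and 3537 RPKM in SR-salt. The chitinase GRMZM2G430936_T01, an enzyme that cuts fungal cell walls, had 51 reads in CR-salt and 257 in SR-salt, and 33 in CR and 158 in SR, with a log2 ratio of -2.33 in both pairs. GRMZM2G133781_T01 had 20 reads in CR-salt and 71 in SR-salt, and 17 in CR and 58 in SR, and GRMZM2G447795_T01 had 36, 98, 41 and 67 reads in that order. The beta-glucosidase GRMZM2G174699_T01 had 0 reads in CR-salt and 25 in SR-salt, at least 8.31-fold lower against the floor of 3 reads, and 3 in CR and 11 in SR. Serine carboxypeptidases, a list added after values were seen, gave 0 higher and 3 lower of 32 tested in CR-salt. GRMZM2G072218_T01 had 0 reads in CR-salt and 21 in SR-salt, and 0 in CR and 15 in SR. GRMZM2G104484_T01 had 51 reads in CR-salt and 108 in SR-salt, and 45 in CR and 160 in SR. The third, GRMZM2G126541_T01, had 15, 59, 23 and 65 reads in that order. The FLS2-entry receptor kinase GRMZM2G364977_T01 (97, 269, 322 and 554 reads) was the 1 call under NaCl among 387 tested entries of its list, a share under that of all transcripts, and 2 were higher and 4 lower in CR.

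Cytochrome P450 enzymes gave 1 higher and 8 lower of 212 tested transcripts in CR-salt, and 1 higher and 7 lower in CR. Of the 72 with 50 or more reads, 33 were above and 39 below 0 under NaCl (median log2 ratio -0.13). The list summed to 3720 RPKM in CR-salt and 3604 RPKM in SR-salt. The P450 transcripts with the lowest ratios rested on few reads in the crown root. GRMZM2G104877_T01 had 3 reads in CR-salt and 27 in SR-salt, a log2 ratio of -3.17 (-5.53 to -1.46), and 6 in CR and 39 in SR. GRMZM2G069722_T01 had 5 reads in CR-salt and 40 in SR-salt, and 3 in CR and 17 in SR. GRMZM2G123446_T01, of cytochrome P450 family 71, had 7 reads in CR-salt and 36 in SR-salt, and 8 in CR and 22 in SR. Calls were few in other lists. Of 42 tested aquaporins, 0 were higher and 1 was lower in CR-salt, with the same counts in CR. Heat shock proteins gave 0 higher and 1 lower of 83 tested in CR-salt, and 0 calls without NaCl. Tubulins and actins gave 1 higher and 0 lower of 88 tested, again with 0 calls without NaCl. Of 477 MYB, WRKY, ERF, HSF and homeobox factors, 1 was higher and 2 were lower in CR-salt, and 0 were higher and 3 lower in CR. The aquaporin GRMZM5G826357_T01 had 18 reads in CR-salt and 55 in SR-salt, and its call was lost with Fisher's exact test and with other library totals. In the same order, the heat shock protein GRMZM2G135960_T01 had 97 and 244 reads, the actin GRMZM2G006765_T02 had 415 and 205, and the ERF-entry factor GRMZM2G044077_T01 had 1 and 22. Lists with 0 calls under NaCl included auxin (103 tested), ethylene (42), glutathione S-transferases (72), intracellular scavenging of reactive oxygen (48), proton pumps (102), potassium and sodium transport (52), terpene synthases (15) and benzoxazinoid synthesis (21).

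Nicotianamine synthases, which make the chelator that moves iron and zinc, were called in the untreated pair only. Of 44 tested entries of metal uptake, 5 were higher and 0 lower in CR, and 0 were called in CR-salt. GRMZM2G124785_T01 had 4644 reads in CR-salt and 2727 in SR-salt, and 8444 in CR and 3383 in SR, and GRMZM2G030036_T01 had 3836, 2289, 7136 and 2871 reads in that order. The log2 ratios of the 5 synthases lay between 0.71 and 0.85 under NaCl and between 1.03 and 1.25 without it, and 0 of the 5 passed the test of the ratio, where each change was under the limit of 1. The differences were therefore present in both pairs, below 2-fold under NaCl, and the primary root had at most 14 reads of any of them. The 5 sequences are close relatives, so how reads were divided among them is uncertain.

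Beyond the calls, 20 transcripts passed the test of the ratio although neither pair was called. The one with the most reads in CR-salt was a phosphoethanolamine N-methyltransferase entry (GRMZM2G060886_T02), the enzyme of choline and betaine precursor synthesis. It had 2829 reads in CR-salt and 1574 in SR-salt, but 1024 in CR and 1358 in SR, and it was higher with NaCl than without it by a call in CR-salt only. Its log2 ratio was 0.85 under NaCl and -0.48 without it. An ornithine decarboxylase entry (GRMZM2G140824_T01), the first step of polyamine synthesis, had 5 reads in CR-salt and 29 in SR-salt, but 49 in CR and 28 in SR. A nitrate transporter (GRMZM2G010280_T01, nrt2.1, which shares its identifier with nrt2.2 in RefSeq and is uncertain for that reason) had 142 reads in CR-salt and 202 in SR-salt, but 81 in CR and 33 in SR. These were named after their values were seen.

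The average difference between CR and SR over both NaCl states was tested with edgeR's quasi-likelihood test on all 6 libraries. Each root type has 2 libraries there, of different NaCl state and so not replicates. The spread used is the variation of root type differences between NaCl states. Of 19581 transcripts, 207 passed an adjusted p of 0.05 (1.06%), 63 higher and 144 lower in the crown root. Of the 176 calls under NaCl, 89 were among the 207, all 89 in the same direction, and 56 of the 60 called in both pairs were among them. Of the 41 transcripts whose ratio changed, 5 were. The fit includes the libraries that made the calls, so the overlap and its direction are largely fixed and give no separate support.

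Root formation genes and markers of other cells gave little to set beside these results. Of the maize root mutant genes looked up by symbol, only rtcs and rth3 were matched to transcripts. The mutant of rtcs (GRMZM2G092542_T01) lacks both shoot-borne and seminal roots, as the paper describes it. The rtcs transcript had 0 reads in CR-salt and 2 in SR-salt, and 1 in CR and 0 in SR, too few for a comparison in these tips. rth3 (GRMZM2G377215_T01), a root hair gene, had 74 reads in CR-salt and 61 in SR-salt, and 91 in CR and 107 in SR. Core histone transcripts, which mark dividing cells, had 0 calls, but 39 of the 43 with at least 50 reads had a log2 ratio below 0 under NaCl and 40 of 43 without it, with medians of -0.26 and -0.33. Their summed level was 9274 RPKM in CR-salt and 10840 RPKM in SR-salt, and 11505 RPKM in CR and 14197 RPKM in SR. DNA replication licensing and cyclin entries had a median of -0.12 under NaCl and -0.06 without it, again with 0 calls. Fewer dividing cells and less transcript per cell cannot be told apart in pooled tips, and the part of either in the results above was not tested. Photosynthesis entries, as a sign of green tissue, summed to 402 RPKM in CR-salt and 359 RPKM in SR-salt, with 0 calls under NaCl.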

How the data were processed

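Reads from 6 root tip libraries of maize were filtered, aligned to the B73 RefGen_V2 genome with SOAP and related to genes with BLAST by the authors. They deposited, for each of 48312 transcripts, a count of uniquely aligned reads, which is not normalized, and the RPKM made from it. The deposited RPKM differed from a recomputation out of reads, transcript lengths and library totals by at most 1.74e-06. Percent coverage was not used. Each library served as its own group, named by its label (0 sample columns were left unassigned).

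CR-salt against SR-salt, and CR against SR, were tested with the study's Audic-Claverie test (2-sided) and p-values were adjusted by Benjamini and Hochberg's method over all transcripts that had a read in the pair. An RPKM of 0 was set to 0.01. The CR/SR ratios of both pairs were compared by an exact conditional test for transcripts with at least 20 reads in the 4 libraries, taking as changed an FDR no higher than 0.001 together with a log2 change of 1 or more once 1 read was added. The average difference used edgeR 4.0.16, with NaCl as a covariate and at least 10 reads in 2 libraries, and DESeq2 1.42.0 as an alternative. Scripts ran in Python 3.11.15 with scipy 1.17.1, pandas 2.3.3, matplotlib 3.10.9 and numpy 2.4.6, and in R 4.3.3.

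Depth ran from 2493000 to 2663000 reads per library (rounded). Counts were simulated with at least 50 expected reads and counting error alone (a BCV of 0.0). On them the test of the salt-treated pair recovered 80 of 200 transcripts changed 2-fold and 197 of 200 changed 4-fold. The test of the ratio recovered 53 and 184, and both tests made 0 other calls. Variation between libraries was left out, so the 0 does not show how often these tests make false calls on the real libraries. There the edgeR fit gave a common BCV of 0.1022. Differences near 2-fold are often missed, which largely follows from the limit on the ratio, itself 2-fold. On counts simulated with a BCV of 0.15, the edgeR fit recovered 200 of 200 changed 4-fold among 19471, with 5 other calls. Reads carry no molecular identifiers, so intervals and the floor of 3 reads cover counting error only.

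Groups are lists of annotation entries matched by name. The members and lists were chosen with earlier results of these data known. Of the 40 lists, 6 (clock, laccases, phosphate transporters, carotenoid cleavage, glycerol-3-phosphate acyltransferases and serine carboxypeptidases) were added and patterns that matched by accident were corrected after values were seen. Named transcripts are, with at least 50 reads in the 4 libraries, up to 5 highest and 5 lowest by log2 ratio of those called in both pairs and of those called in 1 pair only with a changed ratio, plus up to 4 called members of each list with the largest ratio and called transcripts with qRT-PCR primers. Other transcripts, among them GRMZM2G179024_T01 and the unannotated members of the 21 changed ratios beyond the first 5, were named after their values were seen, and 1 named transcript is not reported here. Symbols are from RefSeq (Zm-B73-REFERENCE-NAM-5.0), which matched 109 of the 176 called transcripts. No coordinates are given, since that is not the authors' build. Primer sequences are the study's own. The alternatives tried were Fisher's exact test, other library totals, thresholds and filters, reads summed to genes and an assumed BCV.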

Additional observations from a re-analysis of the deposited data

Results flagged for a closer look

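The CR/SR ratio under NaCl differed from that without it, by the exact conditional test on the reads of 4 libraries, for 41 transcripts. The 21 of them that were called in a pair are listed here with the log2 ratio with NaCl minus that without it. Chance between libraries is not covered by this test, and of the 41, 0 passed with an assumed BCV of 0.1 in edgeR's likelihood ratio test at the same thresholds, where 9 transcripts had an FDR under 0.05 and 1097 an unadjusted p under 0.05.

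Among the peroxidases the difference was 2.41 for GRMZM2G138450_T01, 1.44 for PER66 (GRMZM2G133475_T01), 1.16 for GRMZM2G450717_T01, 1.02 for GRMZM2G042347_T01 and 1.01 for PER70 (GRMZM2G025441_T01), but -2.72 for GRMZM2G443885_T01. Among transport and membrane entries it was 1.66 for the syntaxin 7 entry GRMZM2G106792_T01, 1.42 for HAK20 (GRMZM2G395267_T01), 1.07 for PMP3 (GRMZM2G477325_T01), -1.60 for the solute carrier family 32 entry GRMZM2G164814_T01 and -1.88 for GRMZM2G074672_T02. Among metabolic enzymes it was 1.18 for the asparagine synthase entry GRMZM2G078472_T03, -1.73 for the phosphatidylinositol-bisphosphatase entry GRMZM2G151921_T01 and -3.23 for the beta-fructofuranosidase entry GRMZM2G018716_T01. Among transcripts without annotation it was 2.03 for GRMZM2G335593_T01, 1.72 for GRMZM5G822180_T01, 1.69 for GRMZM2G012183_T01, 1.24 for GRMZM2G003506_T01, 1.23 for GRMZM2G019373_T01, 1.17 for GRMZM2G097884_T01 and -1.90 for GRMZM2G165914_T01.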

How the results depend on the processing

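The 176 calls of CR-salt against SR-salt became 170 to 198 with Fisher's exact test, other library totals, a minimum of 20 reads, 1 read added or reads summed to genes. An FDR of 0.05 gave 343, a log2 ratio of 1.5 gave 90, and an assumed BCV of 0.1 or 0.2 gave 71 or 6. For CR against SR the 211 calls became 413, 103, 90 and 9 under the same 4 settings and 202 to 236 under the others. With a BCV of 0.1, 21 transcripts were called in both pairs, 1 higher and 20 lower in the crown root. With 0.2 only 2 were, both lower, and 0 were called in opposite directions with either. The 41 changed ratios became 105 at an FDR of 0.05, 17 at a difference of 1.5, and 0 with a BCV of 0.1, where 1097 had an unadjusted p under 0.05. The 207 average differences became 85 with DESeq2, 707 with no filter beyond 1 read, 1023 with CR, CR-salt, SR and SR-salt only, which leaves 1 residual degree of freedom, and 219 with library totals. Except as the construction of a setting shows (other thresholds, fewer libraries), the cause was not tested. The 78 named transcripts include some that were called without NaCl alone and so had no call in the salt-treated pair to lose. Of the 78, 36 lost their place among the calls of that pair with a BCV of 0.1 and 65 with 0.2. Direction changed for 0 under any setting run on that pair, but this outcome was fixed beforehand. Those settings kept the log2 ratio of a call or moved it too little to cross 0. No paired analysis was possible because each condition has 1 library and so no replicate numbers to pair. The average fit instead set NaCl state as a covariate. Depth limits the rest, since 17588 transcripts in CR-salt and 17803 in SR-salt rest on fewer than 10 reads.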

Other observations

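Some calls under NaCl belong to none of the groups described. GRMZM2G049915_T01, to which RefSeq gives the synonyms PRP and prcw1, had 6359 reads in CR-salt and 2687 in SR-salt, and 2104 in CR and 1673 in SR, with a log2 ratio of 1.25 under NaCl and 0.26 without it. PR-salt and PR had 6142 and 3630 reads. It was higher in CR-salt than in CR by a call, and the change of ratio was 0.99 (FDR 1.08e-60 in the exact conditional test), under the limit of 1. GRMZM2G110567_T01, without annotation, had 1071 reads in CR-salt and 521 in SR-salt, and 844 in CR and 306 in SR, and was called in both pairs. A polyphenol oxidase entry (GRMZM5G851266_T01), an enzyme that oxidises phenols, had 78 reads in CR-salt and 13 in SR-salt, and 70 in CR and 31 in SR.

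Transporter entries for amino acids and peptides included 3 that were lower in CR-salt. GRMZM2G055545_T01, of solute carrier family 15, had 7 reads in CR-salt and 64 in SR-salt, and 7 in CR and 7 in SR, so that SR-salt alone was high among these 4. GRMZM2G044851_T01, of the same family, had 19 reads in CR-salt and 58 in SR-salt, and 2 in CR and 26 in SR. GRMZM2G108023_T01, of solute carrier family 36, had 12 reads in CR-salt and 53 in SR-salt, and 27 in CR and 31 in SR. Among flavonoid genes, f3h (GRMZM2G062396_T01), a step towards anthocyanins, had 121 reads in CR-salt and 53 in SR-salt, and 52 in CR and 60 in SR, but 701 in PR-salt and 861 in PR, while the flavonoid 3'-monooxygenase entry GRMZM2G158342_T01 had 78 reads in CR-salt and 246 in SR-salt, and 77 in CR and 127 in SR. All of these were named after their values were seen, and the test of the ratio passed for 0 of them.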
